A study of Homo sapiens with 5 samples.

Results

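The 10 genes described here are markers and regulators of the alveolar epithelium: the transcription factors NKX2-1, FOXA1 and FOXA2, the surfactant protein and surfactant-associated genes SFTPB, SFTA2 and SFTA3, the protease NAPSA, the lamellar body proteins ABCA3 and LAMP3, and the phosphate transporter SLC34A2. They were chosen by name, with earlier results of these data known, and the reads of every transcript that GENCODE v44 assigns to each symbol were summed. All 10 had reads, out of 26425 genes with at least 1 read in the series. Of their 57 listed transcripts, 38 had reads.

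RNA of 2 established human lung adenocarcinoma lines, NCI-H1975 and HCC827, was sequenced as long-read cDNA on a nanopore instrument, after poly(A) selection and PCR. Per the labels, a synthetic spike-in RNA set (sequins) had been added to each line's RNA, with mix A in NCI-H1975 and mix B in HCC827, before the RNAs were joined by mass. The 5 libraries held 0, 25, 50, 75 or 100% HCC827 RNA and are called here by their NCI-H1975:HCC827 ratio, 100:0 to 0:100, with 1 library each. Both lines were cultured in the same medium with no drug named in the labels, and a single RNA preparation of each line fed the whole series. The p-values thus measure how libraries of the same RNA depart from the line fitted through them, and not the scatter between cultures. From 100:0 to 0:100, the libraries held 2932250, 4058751, 3879301, 3076856 and 3092629 assigned reads. Sequin reads fell as the HCC827 share rose, at 5475, 4678, 2830, 1269 and 0. The 0:100 library, whose label names mix B, thus had none.

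In the lung, alveolar type 2 cells make surfactant, a mixture of phospholipids and proteins that lowers surface tension. NKX2-1 is the homeodomain factor that marks the lung epithelial lineage, and with the forkhead factors FOXA1 and FOXA2 it activates surfactant genes. Surfactant protein B is made as a precursor, trimmed by proteases including napsin A (NAPSA) and stored with lipid in lamellar bodies, into which ABCA3 pumps phospholipid. NKX2-1 and napsin A are also stained by pathologists to recognise lung adenocarcinoma.

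The 2 lines divided these genes between them. NKX2-1, FOXA1, SFTPB, NAPSA and SFTA2 rose with the HCC827 share, FOXA2, ABCA3 and LAMP3 fell, and SFTA3 and SLC34A2 did not pass the test. The test asked whether log2 expression has a slope along the HCC827 share of the 5 libraries (edgeR quasi-likelihood, Benjamini-Hochberg over 13491 genes, threshold 0.05), and a slope is the fitted log2 change from pure NCI-H1975 to pure HCC827. Levels are given as CPM, reads per 1000000 assigned reads after TMM scaling. All 10 genes passed the filter on low counts. Of the 10, 8 passed the threshold, 5 rising and 3 falling, where 45.8% of all genes tested passed, 23.5% rising and 22.3% falling. The share of all genes that pass is so high that a call by itself says little, so sizes are given as well. Because the 10 genes were chosen with earlier results of these data known, the comparisons with all genes describe them and are not a test. The median slope of the 10 was 1.06, and that of all genes was -0.035. In 5 of the 10 the values ran in order over all 5 libraries, as they did in 28.5% of all genes. Between the pure libraries, 5 of the 10 differed by at least 4-fold, 4 higher and 1 lower in HCC827, against 11.0% of all genes, 4.97% higher and 5.98% lower.

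**Figure D1:**
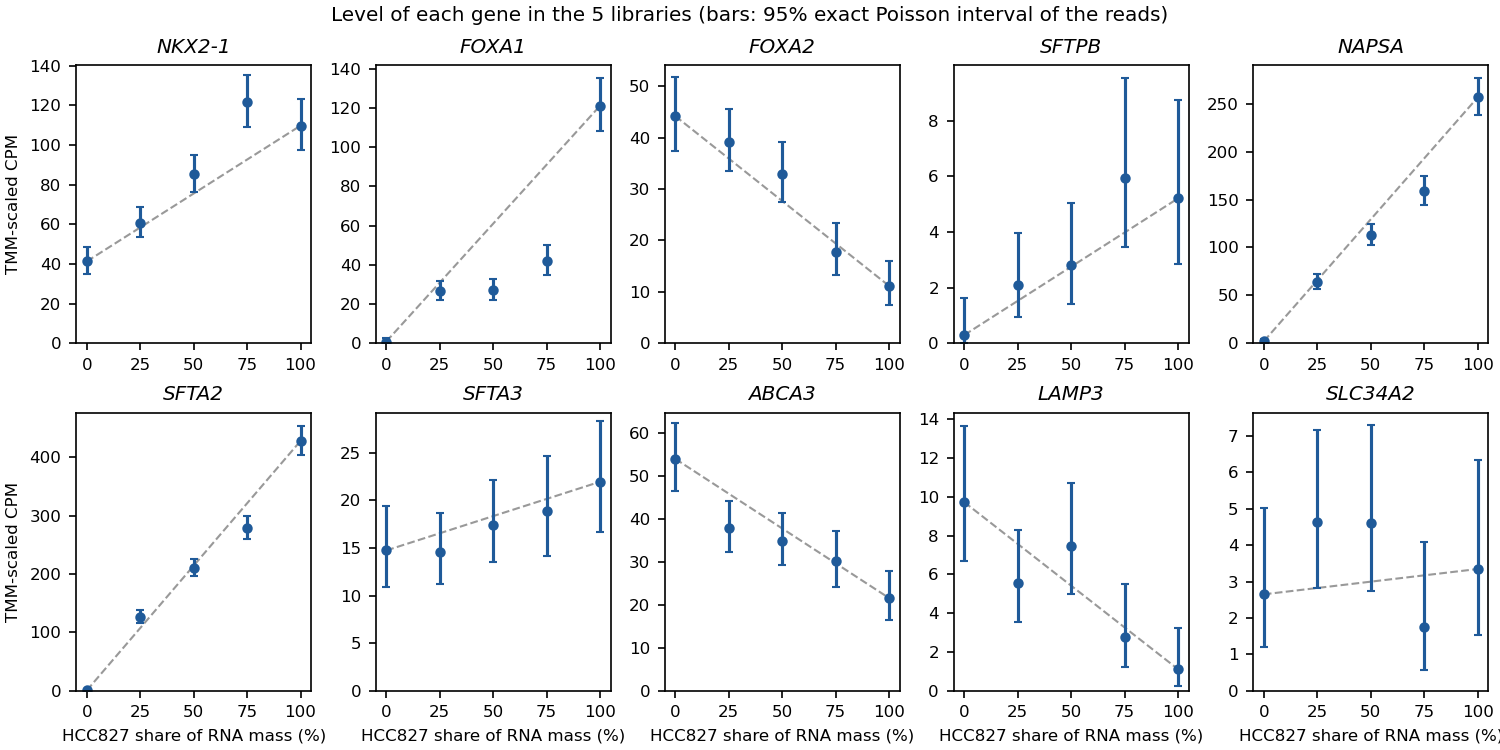
Level of each of the 10 genes (TMM-scaled CPM, linear axis from 0) against the HCC827 share of RNA mass (%), 1 point per library. Bars are 95% exact Poisson intervals of the reads, dashed lines join the 2 pure libraries, and FOXA1 in the 50:50 and 25:75 libraries lies below its line at 26.9 and 41.9 CPM.

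The starts of 4 genes that rose, FOXA1, NKX2-1, SFTA2 and NAPSA, are shown because NKX2-1 and the forkhead factors are known to act at lung promoters. Each stretch runs from 250 bases before to 50 after a RefSeq start site (GRCh38.p14, minus strand, written 5′ to 3′), and capitals mark the NKX2-1 core letters CTCAAG or the forkhead letters TGTTTNC on either strand.
FOXA1 (chr14:37595200-37595499): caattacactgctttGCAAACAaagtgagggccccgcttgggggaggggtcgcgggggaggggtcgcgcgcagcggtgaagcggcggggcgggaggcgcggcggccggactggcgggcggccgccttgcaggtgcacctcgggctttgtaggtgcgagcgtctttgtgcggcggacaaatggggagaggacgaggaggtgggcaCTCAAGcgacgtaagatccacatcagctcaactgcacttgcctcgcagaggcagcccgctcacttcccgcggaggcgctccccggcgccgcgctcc
NKX2-1 (chr14:36520183-36520482): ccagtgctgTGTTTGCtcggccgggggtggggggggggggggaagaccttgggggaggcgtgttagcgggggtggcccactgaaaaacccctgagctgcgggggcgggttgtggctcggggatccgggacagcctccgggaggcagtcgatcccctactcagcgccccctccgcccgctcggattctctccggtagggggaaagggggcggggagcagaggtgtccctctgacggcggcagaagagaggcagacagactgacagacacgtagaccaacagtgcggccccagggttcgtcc
NKX2-1 and SFTA3, listed by RefSeq for both (chr14:36519507-36519806): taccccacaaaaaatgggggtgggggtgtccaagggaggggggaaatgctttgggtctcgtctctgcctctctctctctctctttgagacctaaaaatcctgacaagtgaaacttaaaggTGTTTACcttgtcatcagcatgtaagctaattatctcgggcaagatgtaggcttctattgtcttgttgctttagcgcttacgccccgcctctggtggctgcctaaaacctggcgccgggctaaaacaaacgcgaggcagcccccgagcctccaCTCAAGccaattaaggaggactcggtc
SFTA2 (chr6:30932121-30932420): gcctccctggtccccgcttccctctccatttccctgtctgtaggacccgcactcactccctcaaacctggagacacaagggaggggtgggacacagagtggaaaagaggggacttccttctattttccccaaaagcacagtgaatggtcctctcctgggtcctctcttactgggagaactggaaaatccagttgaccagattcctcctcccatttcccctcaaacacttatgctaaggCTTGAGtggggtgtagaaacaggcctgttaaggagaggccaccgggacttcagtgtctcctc
NAPSA (chr19:50365590-50365889): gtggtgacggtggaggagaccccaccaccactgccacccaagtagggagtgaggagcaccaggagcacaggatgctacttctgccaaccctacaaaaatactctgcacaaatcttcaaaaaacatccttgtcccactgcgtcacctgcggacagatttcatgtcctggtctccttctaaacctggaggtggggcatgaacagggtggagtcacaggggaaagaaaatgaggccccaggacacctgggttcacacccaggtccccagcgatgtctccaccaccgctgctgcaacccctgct

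FOXA1 held both sets of letters, with CTCAAG beginning at -46 from its start and TGTTTNC, on the other strand, at -235. The first NKX2-1 stretch, where transcripts with 594 reads start, held TGTTTNC at -241 and no CTCAAG. The stretch that RefSeq lists for both NKX2-1 and SFTA3 held TGTTTNC at -130 and CTCAAG at 24. An SFTA3 transcript with 114 reads starts within 100 bases of its start site. The NKX2-1 transcript NKX2-1-202, with 623 reads, also starts inside this stretch, at 36519693, but more than 100 bases from that site. SFTA2 had CTCAAG on the other strand, beginning at -12, and no TGTTTNC. The NAPSA stretch, where transcripts with 1663 reads start, had neither, and another NAPSA stretch, where no transcript with reads starts, had CTCAAG at -196. Of the 2 SFTPB stretches, not shown, 1 held TGTTTNC at -14. Of 12 distinct RefSeq stretches for 8 of the 10 genes, 5 held CTCAAG and 5 held TGTTTNC. Over 34943 RefSeq stretches of the same length, 12.4% held CTCAAG and 18.0% held TGTTTNC. These are matches of letters only and say nothing on binding. FOXA2 and LAMP3 had no entry in the table used.

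NKX2-1 (ENSG00000136352, chromosome 14, 36516392 to 36521149, minus strand) had reads in both lines. Its reads numbered 140, 262, 332, 348 and 295 from the 100:0 to the 0:100 library. On the TMM scale these were 41.2, 60.7, 85.2, 122 and 110 CPM. The level climbed to the 25:75 library, and the 25:75 and 0:100 libraries overlapped in their 95% exact Poisson intervals (109 to 135 and 97.5 to 123 CPM). The slope was 1.50 ± 0.21 (SE, adjusted p = 9.45e-05 by edgeR), and the ratio of the 0:100 to the 100:0 library was 2.66 (95% exact counting interval 2.17 to 3.28). NKX2-1 passed the threshold in all 11 alternative fits, with slopes from 1.10 under library totals to 2.06 without the 0:100 library.

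FOXA1 and FOXA2, closely related pioneer factors that open chromatin in lung and other endoderm, moved in opposite directions. FOXA1 (ENSG00000129514, chromosome 14, 37589552 to 37596059, minus strand) had 3, 115, 105, 120 and 326 reads, or 0.884, 26.6, 26.9, 41.9 and 121 CPM. The 100:0 library was near the limit of detection, the 75:25 and 50:50 libraries were alike, the 25:75 library lay above both with no overlap of intervals, and the 0:100 library stood far above the rest. The 0:100 to 100:0 ratio was 137, with a counting interval from 46.5 to 669 because of the 3 reads. Its slope was 3.88 ± 0.53 (SE, adjusted p = 8.84e-05 by edgeR), and 3.33 without the 0:100 library, where it still passed. FOXA2 (ENSG00000125798, chromosome 20, 22580998 to 22585455, minus strand) had 150, 169, 128, 51 and 30 reads, or 44.2, 39.1, 32.8, 17.8 and 11.2 CPM. It fell in every step of the series, and the intervals of the 2 pure libraries (37.4 to 51.9 and 7.53 to 15.9 CPM) did not overlap. Its slope was -1.86 ± 0.28 (SE, adjusted p = 0.000157 by edgeR), and the 100:0 library was 3.96-fold higher than the 0:100 library (2.66 to 6.08). Both FOXA genes passed in every alternative fit that tested them, 10 for FOXA1 and 11 for FOXA2.

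SFTA2 encodes a small secreted protein described for its likeness to surfactant proteins. SFTA2 (ENSG00000196260, chromosome 6, 30931353 to 30955636, minus strand) had 2, 547, 822, 800 and 1151 reads, or 0.589, 127, 211, 280 and 428 CPM. It was nearly absent from NCI-H1975 and climbed at each step. The ratio of the pure libraries was 726, with a counting interval from 201 to 6005. The slope was 3.86 ± 0.84 (SE, adjusted p = 0.00243 by edgeR). It missed the threshold with the Wald test of DESeq2 (slope 4.71, adjusted p = 0.100), where 7 of the 10 genes and 35.5% of all genes passed, and its adjusted p over the 10 alternative fits ran from 1.69e-114 to 0.100. Without the 100:0 library its slope was 2.27, and the gene still passed.

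NAPSA (ENSG00000131400, chromosome 19, 50358472 to 50365830, minus strand), the napsin A protease, followed the same course. It had 7, 278, 441, 455 and 690 reads, or 2.06, 64.4, 113, 159 and 257 CPM. Every step was upward, and the 100:0 library was far below the rest. The ratio of the pure libraries was 124 (60.1 to 311), and the slope was 3.79 ± 0.60 (SE, adjusted p = 0.000247 by edgeR). NAPSA lies within NR1H2 on the opposite strand, which had 85, 111, 112, 77 and 103 reads. Whether counting used the strand was not given in the sources used here.

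SFTPB (ENSG00000168878, chromosome 2, 85657314 to 85668741, minus strand), the surfactant protein that NAPSA helps to process, was close to the limit of detection. It had 1, 9, 11, 17 and 14 reads, or 0.295, 2.08, 2.82, 5.94 and 5.21 CPM. Reads were fewest in the 100:0 library, whose interval (up to 1.64 CPM) overlapped those of the 75:25 and 50:50 libraries, and the other 4 overlapped each other. The slope was 2.75 ± 0.76 (SE, adjusted p = 0.0104 by edgeR). The ratio of the pure libraries was 17.7, with an interval from 2.69 to 747. Without the 100:0 library the slope was 1.96 and did not pass (adjusted p = 0.0860), in a fit where 7 of the 10 genes and 35.5% of all genes passed. SFTA3 (chromosome 14, 36473207 to 36521149, minus strand), whose transcripts with reads are mostly noncoding, had 50, 63, 68, 54 and 59 reads, or 14.7, 14.6, 17.5, 18.9 and 21.9 CPM. Its intervals overlapped in all 5 libraries, and its slope of 0.62 ± 0.26 did not pass (SE, adjusted p = 0.0648 by edgeR). The symbol stands for 2 gene identifiers in GENCODE v44, which were summed, and their span overlaps NKX2-1 on the same strand.

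ABCA3 and LAMP3, which belong to the lamellar body, were higher in NCI-H1975. ABCA3 (ENSG00000167972, chromosome 16, 2275881 to 2340746, minus strand) had 183, 163, 136, 86 and 58 reads, or 53.9, 37.8, 34.9, 30.1 and 21.6 CPM. It fell in each step, and the largest step was between the first 2 libraries. The slope was -1.18 ± 0.20 (SE, adjusted p = 0.000420 by edgeR), and the 100:0 library was 2.50-fold higher (1.85 to 3.42). LAMP3 (ENSG00000078081, chromosome 3, 183122215 to 183163839, minus strand), a membrane glycoprotein of lysosome-related organelles, had 33, 24, 29, 8 and 3 reads, or 9.72, 5.56, 7.44, 2.80 and 1.12 CPM. The 25:75 and 0:100 libraries were the lowest. Its slope was -2.26 ± 0.62 (SE, adjusted p = 0.00956 by edgeR), and the 100:0 library was 8.71-fold higher (2.73 to 44.4). Without the 0:100 library the slope was -1.66 and did not pass (adjusted p = 0.0983), in a fit where 7 of the 10 genes and 30.5% of all genes passed.

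SLC34A2 (ENSG00000157765, chromosome 4, 25648011 to 25678748, plus strand), the sodium-dependent phosphate transporter of type 2 cells, had 9, 20, 18, 5 and 9 reads, or 2.65, 4.63, 4.62, 1.75 and 3.35 CPM. The intervals of all 5 libraries overlapped. The slope was -0.26 ± 0.70 (SE, adjusted p = 0.783 by edgeR), so a difference between the lines was not detectable at this depth. Its ratio between the pure libraries was 1.26, with an interval from 0.444 to 3.59.

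**Figure D2:**
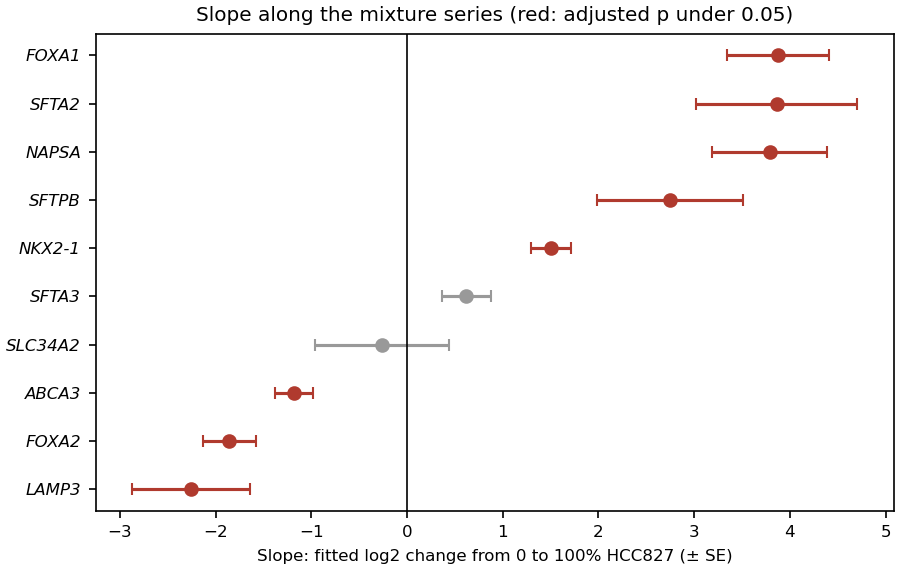
Slope of each gene along the series on the horizontal axis (fitted log2 change from 0 to 100% HCC827), with bars of 1 SE, 1 row per gene and red for adjusted p under 0.05 (edgeR quasi-likelihood test). FOXA1, SFTA2 and NAPSA lie between 3.79 and 3.88, LAMP3 is lowest at -2.26, and the grey points are SFTA3 and SLC34A2.

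Leaving out 1 library moved the slopes of the genes that NCI-H1975 nearly lacks. Without the 0:100 library the slope was 4.88 for SFTA2, 4.62 for NAPSA and 4.07 for SFTPB (adjusted p = 0.0105 by edgeR). Without the 100:0 library it was 2.58 for NAPSA and 3.14 for FOXA1, and without the 75:25 library 5.26 for SFTA2, 5.32 for FOXA1 and 4.69 for NAPSA, and all of these passed.

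Scaling changes the level of every gene together. Under library totals in place of TMM, the median slope of all genes moved from -0.035 to -0.44, and the split of calls moved from 3169 rising and 3006 falling to 1813 and 5074. The 10 genes kept 5 rising and 3 falling under that scaling, where 51.0% of all genes passed. The NKX2-1 ratio of the pure libraries became 2.00 in place of 2.66, outside its counting interval. For FOXA2 and ABCA3 the 100:0 library became 5.27-fold and 3.33-fold higher, in place of 3.96 and 2.50. With a filter of 10 reads in every library, ABCA3, FOXA2, NKX2-1 and SFTA3 were tested and 3 passed, against 48.7% of all genes.

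A mixture is linear in CPM, so each mixed library can be placed between the pure libraries, from 0% at the 100:0 level to 100% at the 0:100 level. This was done for the 6 genes at least 2-fold apart whose pure libraries sum to 50 reads or more. Over all 2909 such genes the median position was 27.6% in the 75:25 library, 47.3% in the 50:50 library and 71.2% in the 25:75 library. SFTA2 lay at 29.5% ± 1.54, 49.2% ± 2.25 and 65.3% ± 3.01 (SE from counting). NAPSA lay at 24.5% ± 1.80, 43.7% ± 2.71 and 61.7% ± 3.77. Both genes thus stood within 10 points of the median gene in all 3 libraries.

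FOXA1 did not. Its positions were 21.4% ± 2.41, 21.7% ± 2.52 and 34.1% ± 3.72 (SE from counting). A linear mixture by mass would give 61.1 CPM in the 50:50 library and 91.1 CPM in the 25:75 library, and the exact Poisson intervals of the measured values were 22.0 to 32.6 and 34.8 to 50.2 CPM. Among 111 genes more than 4-fold higher in HCC827 with at least 200 reads there, a set chosen after the values were seen, FOXA1 had the lowest position in the 50:50 and 25:75 libraries. In the 75:25 library 9 of the 111 lay lower. The middle 90% of these genes lay from 38.7 to 58.4% in the 50:50 library and from 57.1 to 82.8% in the 25:75 library. The 0:100 library, which ends the fall in sequin reads along the series and had none, is the upper end of this scale. Its part in the FOXA1 result was not tested.

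NKX2-1 went the other way, at 28.4% ± 7.09, 64.2% ± 9.27 and 117% ± 14.5. In the 25:75 library it lay above the 95th percentile of the 2909 genes, 99.8%, by a little more than its SE. FOXA2 lay at 15.3% ± 13.0, 34.3% ± 11.5 and 79.8% ± 9.28, and ABCA3 at 49.9% ± 11.9, 58.8% ± 11.7 and 73.7% ± 12.4. These lay within 1 SE of the median gene, except ABCA3 in the 75:25 library and FOXA2 in the 50:50 library.

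**Figure D3:**
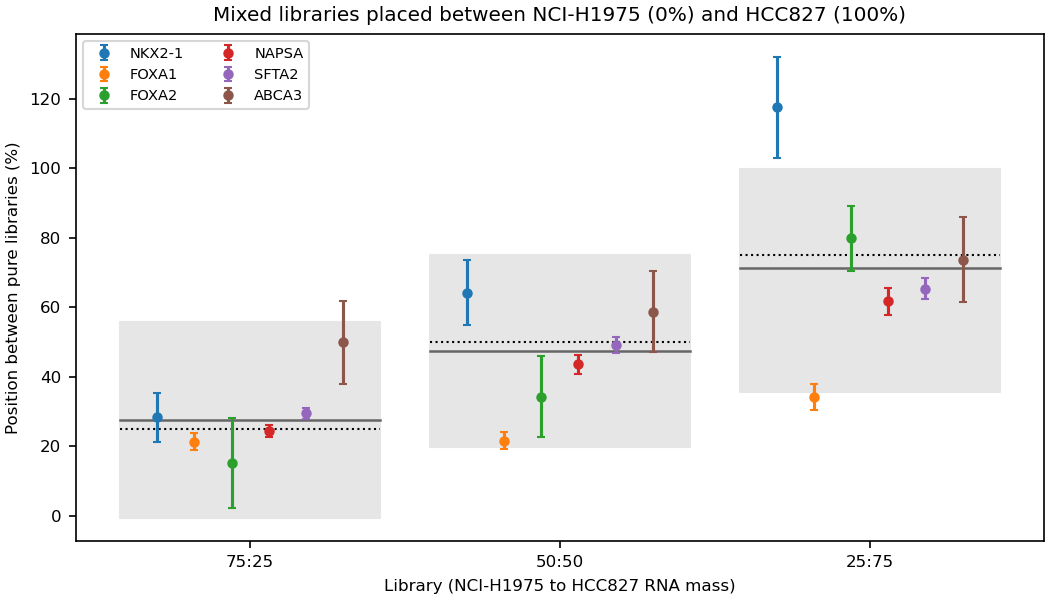
Position of each mixed library between the pure libraries (%, vertical axis) for 6 genes, by library, with bars of 1 SE from counting. Grey boxes span the 5th to 95th percentile of 2909 genes, solid lines their median and dotted lines the mass share; FOXA1 lies under the box at 34.1% in the 25:75 library and NKX2-1 above it at 117%.

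Transcript usage was tested for the 6 genes with at least 2 tested transcripts. None of the 6 passed (edgeR diffSpliceDGE, Simes), with 0 of them under an unadjusted p of 0.05, where 0.402% of 7455 genes passed the adjusted threshold and 3.86% the unadjusted one. A gene-level F test likewise called 0 of them after adjustment, with 1 gene, FOXA2, at an unadjusted p of 0.0349. The sum of NKX2-1 came from 3 protein-coding transcripts. NKX2-1-202 took 42.1% of its tested reads in pure NCI-H1975 and 44.9% in pure HCC827, NKX2-1-201 took 44.3 and 42.5%, and a longer form took 13.6 and 12.6%. The share of NKX2-1-202 ran from 42.1 to 48.9% over the 5 libraries. FOXA2-202 took 55.3, 56.2, 54.7, 41.2 and 30.0% of FOXA2 reads along the series, with only 30 reads in the last library.

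SFTA2 and NAPSA reads included retained-intron transcripts. SFTA2-202, a retained-intron form, took 39.1, 35.8, 29.6 and 34.9% of SFTA2 reads in the 4 libraries with HCC827. In NAPSA the protein-coding NAPSA-201 took 87.4, 88.9, 89.9 and 89.0% in those libraries, and retained-intron forms took the rest. FOXA1-201 held 663 of 669 FOXA1 reads. How reads that match several transcripts were shared out was not given in the sources used here, so shares of similar forms are uncertain.

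**Figure D4:**
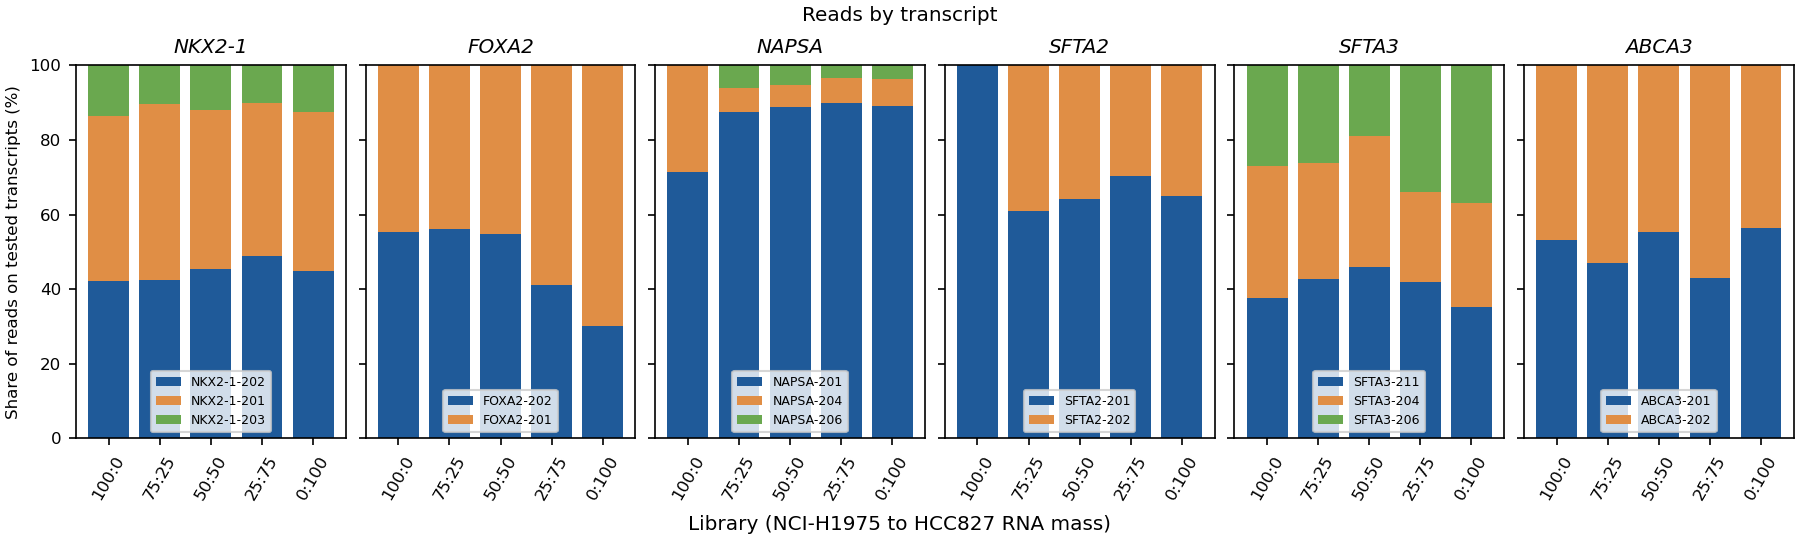
Share of reads (%, vertical axis, from 0) on each tested transcript of 6 genes, 1 bar per library from 100:0 to 0:100. NKX2-1-202 lies between 42.1 and 48.9%, FOXA2-202 goes from 55.3 to 30.0%, and the 100:0 bars of SFTA2 and NAPSA rest on 2 and 7 reads.

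Of the other tested genes that start within 1 Mb of NKX2-1 on chromosome 14, its antisense RNA NKX2-1-AS1 and MBIP passed the threshold, and both rose, where 45.8% of all genes tested passed. NKX2-1-AS1 had 4, 9, 12, 15 and 17 reads and a slope of 2.33 ± 0.61 (SE, adjusted p = 0.00711 by edgeR). It overlaps part of NKX2-1 on the opposite strand, so some reads of the pair might not be told apart without strand. MBIP had 24, 44, 40, 34 and 47 reads and a slope of 1.12 ± 0.33 (SE, adjusted p = 0.0138 by edgeR), and it did not pass without the 100:0 library (adjusted p = 0.0776), without the 0:100 library (0.209), under library totals (0.0831) or with DESeq2 (0.0550). SFTA3, NKX2-8, PAX9, SLC25A21, SLC25A21-AS1, MIPOL1, BRMS1L and RALGAPA1 did not pass, with slopes from -0.38 to 1.55.

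The genes whose course was most like that of NKX2-1 were DIS3L2, RPH3AL, ZNHIT6 and EREG. Likeness was the root mean square distance of centred log2 CPM over the 5 libraries, and these lay at 0.041 to 0.062. In all, 417 of 11015 genes lay within 0.2 of it. The same measure gave KCNMB2-AS1, CTSS, CXCL16 and ID2 for SFTPB, at 0.087 to 0.17. In a mixture of 2 RNAs any pair of genes with a similar ratio runs alike.

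Other genes of the surfactant system were split. Of 12 listed genes, 6 were tested and 4 passed, 2 rising and 2 falling, with a median slope of -0.25, where 45.8% of all genes tested passed, 23.5% rising and 22.3% falling. LPCAT1, which makes the saturated phosphatidylcholine of surfactant, went up from 288 to 952 CPM (slope 1.60 ± 0.16 SE, adjusted p = 8.95e-06 by edgeR). CTSH, a cathepsin that also trims the SFTPB precursor, rose from 123 to 204 CPM (slope 0.79 ± 0.13). ADGRF5, a receptor that restrains the surfactant pool, fell from 6.19 to 0.372 CPM, and P2RY2, a receptor for secreted nucleotides, from 9.72 to 3.35 CPM. ADGRF5 and P2RY2 lost their calls without the 0:100 library, at adjusted p = 0.297 and 0.0733, and P2RY2 also without the 100:0 library (0.441) and the 25:75 library (0.0528), and with DESeq2 (0.114). ADGRF5 also lost its call without the 75:25 library (0.0811) and with limma-voom (0.0509).

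SFTPC, PGC and DMBT1 had 0 reads in all 5 libraries, which puts the 1-sided 95% upper bound on the expected reads at about 3 in each. SFTPA1 had 0, 0, 0, 7 and 4 reads and SFTPA2 had 0, 6, 4, 5 and 4, and these near-identical genes can share reads. SFTPD had 0, 2, 1, 0 and 0. The SFTPA and SFTPD genes were named after their values were seen. SFTPC, the gene most specific to type 2 cells, was thus not detected in either line at this depth.

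Of 24 other transcription factors of airway and alveolar epithelium, 18 were tested and 10 passed, 8 rising and 2 falling, with a median slope of 0.35, where 45.8% of all genes tested passed, 23.5% rising and 22.3% falling. Under library totals 7 rose and 3 fell, where 51.0% of all genes passed, and without the 0:100 library 9 rose and 1 fell, where 30.5% passed. ELF3, an epithelial ETS factor, rose from 43.9 to 573 CPM (slope 3.22 ± 0.36 SE by edgeR). ID2, a marker of the distal lung tip, rose from 3.54 to 30.1 CPM, and SOX2, a factor of the proximal airway, from 17.1 to 110 CPM. SOX9, a factor of the distal lung tip, fell from 26.2 to 2.60 CPM. EHF rose with a slope of 2.25 ± 0.73 on 80 reads in all, and lost its call without the 100:0, 75:25 or 25:75 library (adjusted p = 0.0730, 0.0566 and 0.0668), while without the 0:100 library its slope was 3.82 and passed. ELF5 had 0 reads in all 5 libraries.

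Of 8 genes known as NKX2-1 targets, 3 were tested and 2 passed, both rising, with a median slope of 0.87, where 45.8% of all genes tested passed, 23.5% rising. HOPX had 12, 18, 32, 35 and 24 reads with a slope of 1.64 ± 0.50, and SELENBP1 had 82, 136, 112, 114 and 115 reads with a slope of 0.78 ± 0.21 (SE, adjusted p = 0.0168 and 0.00841 by edgeR). Under library totals neither passed (adjusted p = 0.0547 and 0.145). Without the 0:100 library SELENBP1 did not pass (0.0592) and HOPX passed with a slope of 2.62, without the 100:0 library neither passed (0.0651 and 0.0540), and HOPX did not pass without the 75:25 library (0.0646) or the 25:75 library (0.0634). SCGB1A1, SCGB3A2 and CLDN18 had 0 reads in all 5 libraries.

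Markers of other epithelial cells moved along the same series. The 3 goblet cell markers all passed and rose, where 45.8% of all genes tested passed, 23.5% rising. Their summed level went from 0.589 CPM (100:0) to 309 CPM (0:100), of which MUC5B alone held 262 CPM. MUC5B, a mucin, went from 2 to 704 reads, and MUC5AC and SPDEF had 0 reads in pure NCI-H1975. All 6 club cell markers had 0 reads in every library. Of the neuroendocrine markers reported, INSM1 and CHGA had 0 reads throughout, NEUROD1 had 1 read in all and SYP had 6, 7, 8, 5 and 1 reads. Of 8 gastrointestinal markers 5 had 0 reads, HNF4A among them. VIL1 went from 1.18 CPM (100:0) to 13.0 CPM (0:100), and the summed level of the 8 from 1.18 to 13.4 CPM. The part of the goblet markers in the course of SFTA2, NAPSA or FOXA1 was not tested, and bulk RNA cannot tell fewer cells with a gene from less RNA per cell.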

How the data were processed

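Poly(A) RNA of 2 cell lines in 5 mass ratios was sequenced, 1 library per ratio. The authors deposited a table per library with estimated counts of reads per transcript, unscaled; minimap2 2.24, Salmon 1.9.0 and GRCh38 are named in the submitters' processing notes. Copies of an identifier were summed and values rounded. Of 227751 human transcripts, 224076 matched GENCODE v44 (GRCh38), holding 98.6% of human reads, and coordinates come from it.

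Levels are reads divided by all assigned reads times the TMM factor (0.870 to 1.16). Slopes used edgeR 4.0.16 (R 4.3.3) over genes with at least 10 reads in at least 2 libraries, with 3 residual degrees of freedom; each SE is the absolute slope over the root of its F statistic. A log slope understates the ratio of a gene nearly absent from 1 line. Since a mixture is linear in CPM and not in log2, the SE of such a gene holds this bend as well as scatter. For SFTA2 the SE was 0.84 in the main fit and 0.16 without the 100:0 library. Alternatives used DESeq2 1.42.0, limma 3.58.1, other scalings and filters, and each library left out. The intervals and the SE from counting cover counting error only and treat reads as independent. PCR copies count as separate reads, so both can be too narrow. Ratios of the pure libraries are of the reads as counted; for the count of genes 4-fold apart, reads under 3 were set to 3.

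All 10 genes are named. From the lists of surfactant, factor and target genes, those named passed the threshold (at most 6 by slope) or had 0 reads; some genes of the lists are not reported here. The genes and lists were chosen with earlier results of these data known. The fits were tested on simulated data. The slope test called 40 of 100 simulated 2-fold changes and 84 of 100 4-fold changes, with 6 false calls among 13291 unchanged genes. Only 200 genes were changed there, far fewer than the data called, so its rates may differ from those in the data. The usage test called 192 of 200 changed genes, with 3 false calls among 6912. Each changed gene had exactly 2 tested transcripts and at least 200 reads, and these transcripts swapped a large and a small share. Smaller shifts, fewer reads and more tested transcripts per gene were not simulated, so this rate does not describe them.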

Additional observations from a re-analysis of the deposited data

How the results depend on the processing

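Of 102 slopes of the 10 genes under the alternatives that tested them, 98 kept direction and side of the threshold, 3 lost the call (SFTA2, SFTPB and LAMP3, given above) and 1 changed sign: SLC34A2, which had no detected slope, at 0.13 without the 25:75 library (range -1.09 to 0.13 when 1 library was left out). Fits that each left out 1 library called 4069 to 5860 genes, against 6175, the lowest without the 0:100 library, and 7 to 8 of the 10 genes. With 10 reads in every library 3 of the 10 were called, since only 4 were tested. For transcript usage, 30 genes were called, 4 to 20 when 1 library was left out and 66 by the gene-level F test, while 0 of the 10 genes were called in any of these fits (0 to 0). With a floor of 10 reads, 746 genes differed by at least 4-fold between the pure libraries (397 with HCC827 above and 349 below), against 1477 (670 and 807), and 3 of the 10 in place of 5, since a higher floor shrinks bounded ratios. Under library totals the 50:50 library lay at 56.9% for SFTA2 and 50.4% for NAPSA, and at 24.9% for FOXA1, against 21.7% ± 2.52. It lay at 79.4% for NKX2-1, 43.8% for FOXA2 and 62.7% for ABCA3, against 64.2, 34.3 and 58.8% under TMM. The median position of all genes under library totals is not given here, so these values have no such reference. No paired analysis was possible because each ratio had 1 library. Reads of SFTPB, LAMP3 and SLC34A2, 52 to 97 in all, limit their values.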

Other observations

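Markers of alveolar type 1 and basal cells were divided between the lines as well. Of 8 type 1 markers 5 were tested and 4 passed (edgeR quasi-likelihood slope), 2 rising and 2 falling, where 45.8% of all genes tested passed. The rising genes were AQP5 and HOPX, and HOPX is also counted above among the NKX2-1 targets. It lost its call in several alternative fits, as given there. Under library totals 1 of the type 1 markers rose and 2 fell, where 51.0% of all genes passed. AQP5, a water channel, went from 0 reads (100:0) to 92 (0:100), while CAV1, the caveolae protein, went from 1371 to 488 reads and EMP2, a membrane protein, from 287 to 82. PDPN had 0 reads in every library. Of 5 basal markers, TP63 fell from 98 to 21 reads and the keratin KRT15 rose from 105 to 230, while KRT5 and KRT14 had 1 read each in the whole series. TP63 did not pass without the 0:100 library (adjusted p = 0.0723). Of 5 ciliated cell markers 3 were tested and 1 passed, falling, where 22.3% of all genes tested passed and fell. It was CAPS, a calcium-binding protein, which went from 384 to 27 reads. FOXJ1, the factor that drives ciliation, had 35, 40, 36, 31 and 36 reads and did not pass. These genes come from lists fixed with earlier results known and were named after their values were seen.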
